A study of Homo sapiens with 20 samples.

Results

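The 120 guide sets described here were strongly lost from pooled HAP1 cells during 14 days of RfxCas13d expression and changed little in HEK293FT cells that carried the same guide library. They hold 480 guides, out of 4174 sets and 16684 targeting guides with at least 3 guides per set in both lines. A set is 4 guides with consecutive numbers. The sets were chosen by their measured change from day 0 to day 14, on the log2 scale and relative to the non-targeting guides. The set mean had to lie below -1 in HAP1 and above -0.3 in HEK293FT, so the loss in HAP1 and the small change in HEK293FT are descriptions of the choice and not findings. Of the 268 sets below -1 in HAP1, the other 148 were at or below -0.3 in HEK293FT and serve as the comparison.

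Abundance was measured by sequencing guide amplicons from genomic DNA, with 2 libraries from separate infections at each day in each line. Day 0 is the start of doxycycline induction. The groups are HAP1 with doxycycline-inducible nuclear RfxCas13d at day 14 and at day 0, and HEK293FT with the same nuclease at day 14 and at day 0. All groups carried the lentiviral library at low multiplicity and were selected with puromycin. HAP1 is a near-haploid line derived from a chronic myelogenous leukaemia, and HEK293FT is a line from human embryonic kidney that expresses the SV40 large T antigen. Guide amplicons carry no marker genes, so the identity of the lines could not be checked here.

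RfxCas13d is an RNA-guided nuclease that cuts RNA, not DNA. Its guide RNA pairs with a transcript, and pairing activates a pair of HEPN motifs that cleave the bound RNA and, under some conditions, other RNA nearby. In a pooled growth screen each cell carries a guide as an integrated cassette, and a guide becomes rarer when the cells that carry it leave fewer descendants than cells with other guides. Non-targeting guides match no transcript and mark the level that growth alone would give. The guides are known here by number only. Their sequences and target genes were not used, and whether the 4 guides of a set share a target is not stated.

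The authors deposited normalised signal, a scale on which a targeting guide had a median between 108.3 and 134.5 and a non-targeting guide between 427.6 and 435.9 across the 8 libraries. Read depth is unknown: the values of a library were all distinct, and the size of 1 read could not be read from them. The non-targeting levels used for scaling lay between 425.2 and 433.4. Non-targeting guides grouped by 4 in the same way gave 250 sets, and 0 of them met the rule. Their set changes ran from -0.45 to 0.35 in HAP1 and from -0.57 to 0.36 in HEK293FT. The scaling centres these same guides near 0, and their signal was higher than that of most targeting guides. The count of 0 is therefore no test of the members.

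The libraries of each line did not show the loss alike, and this bears on all that follows. In HEK293FT the first day 14 library lay below the second in 95 of 120 member sets, with a median gap of -0.12 log2, against 2372 of 4174 sets overall. The median change of the members was -0.23 in the first and -0.07 in the second day 14 library. In the 148 comparison sets these medians were -0.90 and -0.53. In HAP1 the first day 0 library lay below the second in 109 of 120 member sets, with a median gap of -0.28, against 2560 of 4174 sets and a median gap of -0.04 overall. In the comparison sets it did so in 141 of 148, with a median gap of -0.43. At day 14 the HAP1 libraries differed less evenly, with the first below the second in 67 of 120 sets. Without the second HEK293FT day 14 library the rule found 83 sets, and without the first it found 148. Of the 120 members, 57 met the rule with each of the 8 libraries left out in turn.

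In HAP1 the member sets changed by -4.73 to -1.01 log2 units. Their median of -1.56 leaves 33.9% of the day 0 abundance, against a median of 0.04 over all 4174 sets. Across 480 guides the median signal was 33.7 and 36.7 in the day 14 libraries, against 90.6 and 110.6 in the day 0 libraries. In HEK293FT the same guides had medians of 114.7 and 126.3 at day 14, against 129.5 and 128.4 at day 0. The HAP1 day 14 levels lay apart from all other libraries, while those of HEK293FT stayed near their day 0 levels. The HEK293FT set changes ran from -0.30 to 0.21, with a median of -0.17 that leaves 89.1% of the day 0 abundance, against a median of -0.03 over all sets. All 120 members had both day 14 libraries below both day 0 libraries in HAP1, which held for 24.1% of all sets. In HEK293FT this was so for 71 of 120 members and 32.4% of all sets.

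At the top of the list in HAP1 stood the set gID_04245 to gID_04248. Its geometric mean signal was 1.91 and 4.26 in the HAP1 day 14 libraries, against 52.3 and 109 in the day 0 libraries. Both day 14 values lay far below both day 0 values. In HEK293FT it was 93.3 and 112 at day 14, against 115 and 128 at day 0. The change was -4.73 ± 0.53 in HAP1 and -0.25 ± 0.53 in HEK293FT (SE from limma, n = 2 per day), where each set has 1 SE estimated over the libraries of both lines. All 4 guides were lost, by -3.55, -4.69, -5.32 and -5.36 in the order of their numbers. The guides gID_04247 and gID_04248 were at 0.969 and 1.03 in the first day 14 library, near the lowest value of that library, 0.939.

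A further 6 sets fell below -3. The set gID_08029 to gID_08032 was at 3.99 and 6.81 at day 14, against 48.8 and 82.9 at day 0, in HAP1. The set gID_07669 to gID_07672 was at 7.35 and 10.0 in HAP1 at day 14, against 72.1 and 116 at day 0. Their changes were -3.62 ± 0.43 and -3.42 ± 0.28, and those in HEK293FT were -0.28 and -0.18. The sets starting at gID_04221, gID_06321, gID_09465 and gID_12053 changed by -3.41, -3.31, -3.30 and -3.16 in HAP1 and by -0.20, -0.26, -0.21 and -0.24 in HEK293FT. The set gID_09465 to gID_09468 had the widest gap between its HAP1 day 14 libraries of all members, 5.59 against 15.2. Over these 7 sets the median HEK293FT change was -0.24. It was -0.19 in the 23 sets between -3 and -2 in HAP1, and -0.15 in the 90 sets between -2 and -1. Across the 120 sets the changes of the lines had a Pearson correlation of 0.178 and a Spearman correlation of 0.153, within bounds that cut off both scales.

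Among the 10 most depleted sets, gID_10565 to gID_10568 was the one with a HEK293FT change above 0. Its signal was 11.6 and 13.1 in HAP1 at day 14, against 74.6 and 103 at day 0. In HEK293FT it was 144 and 133 at day 14, against 138 and 127 at day 0. The changes were -2.84 ± 0.18 in HAP1 and 0.06 ± 0.18 in HEK293FT. The first guide, gID_10565, changed by -0.14 in HAP1, and the other 3 by -3.54, -3.73 and -3.94. The sets gID_05945 to gID_05948 and gID_14129 to gID_14132 completed the 10, with -2.996 and -2.83 in HAP1 and -0.09 and -0.20 in HEK293FT.

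The sets with the highest change in HEK293FT show the other end of that range. The set gID_15981 to gID_15984 was at 140 and 136 in HEK293FT at day 14, against 116 and 122 at day 0. In HAP1 it was at 43.5 and 45.6 at day 14, against 99.9 and 96.9 at day 0. Its libraries did not overlap between days in either line, and the direction was opposite. The changes were -1.15 ± 0.09 in HAP1 and 0.21 ± 0.09 in HEK293FT. All 4 of its guides were higher at day 14 in HEK293FT, by 0.16, 0.15, 0.23 and 0.30. The set gID_13521 to gID_13524 was at 138 and 135 in HEK293FT at day 14, against 121 and 120 at day 0, and its HAP1 change was -2.11 ± 0.17. The sets starting at gID_06085, gID_14125 and gID_16549 followed, with 0.15, 0.10 and 0.09 in HEK293FT and -1.22, -1.89 and -1.17 in HAP1. In all, 17 of 120 members had a HEK293FT change above 0, against 1550 of 4174 sets.

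The bounds cut through a continuous range. Just inside the HAP1 bound were the sets starting at gID_12665, gID_11565 and gID_09725, each at -1.01. Nearest outside it, among sets that met the HEK293FT bound, were those starting at gID_02025, gID_10661 and gID_04653, at -0.98, -0.98 and -0.97. Just inside the HEK293FT bound were the sets starting at gID_15077, gID_01645 and gID_06625, at -0.30, -0.30 and -0.29. Nearest outside it, among sets that met the HAP1 bound, were those starting at gID_08857, gID_10477 and gID_09721, at -0.31 each. The sets gID_12389 to gID_12392 and gID_03237 to gID_03240 were also among the 5 lowest in HEK293FT, at -0.29 each. In all 5 the first HEK293FT day 14 library was the lower, with 82.8 against 117 for gID_15077 to gID_15080 and 88.6 against 136 for gID_01645 to gID_01648.

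How far the members were spared in HEK293FT is known only loosely. The median SE of a member set's change was 0.15, wider than the distance from the median HEK293FT change to the bound. That SE was estimated over the libraries of both lines, so it also carries the spread of the HAP1 libraries. The median absolute gap between the libraries of a day was 0.10 at day 0 and 0.14 at day 14 in HEK293FT. In HAP1 it was 0.30 and 0.25. The intervals and set calls given next rest on the shared SE and are not a measure of HEK293FT alone. The 95% interval of the HEK293FT change reached to -0.3 or below in 101 of 120 members (84.2%) and stayed above it in 19, against 1454 of all 4174 sets (34.8%) that reached it, and the rule keeps the members' changes above that bound. By limma 0 of 120 members were called lower in HEK293FT at an adjusted p under 0.05, while 1.89% of all sets were called lower. At an unadjusted p under 0.05, 5 members were lower (4.17%), against 368 of all sets (8.82%). The set gID_15981 to gID_15984 was the 1 member that was higher. In either direction 6 of 120 members passed, against 425 of all 4174 sets. The 5 members lower at an unadjusted p under 0.05 had an interval wholly below 0. These were the sets starting at gID_06881, gID_08037, gID_00945, gID_10717 and gID_15653, at -0.27, -0.26, -0.22, -0.24 and -0.23, named after their values were seen. In HAP1 the interval lay wholly below -1 in 77 of 120 members, against 211 of all sets (5.06%), a share that the choice by HAP1 change fixes in part.

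Calls on single guides describe the choice and are given with the share over all guides. In HAP1, limma called 315 of 480 member guides lower, against 6.43% of all guides, and 0 higher. In HEK293FT it called 2 of 478 lower, against 1.08% of all guides, and 0 higher. The day effect was lower in HAP1 than in HEK293FT for 266 of 478 guides, against 3.93% of all guides, and for 116 of 120 sets, against 8.15% of all sets. The HEK293FT count was 42 without the second day 14 library of that line and 1 without the first, and over all guides it was then 540 and 249, against 190 with all libraries. The count of guides whose day effect was lower in HAP1, 266 with all libraries, was 174 without the second HAP1 day 0 library, 159 and 160 without the first and the second HEK293FT day 0 library, and 175 without the second HEK293FT day 14 library. Over all guides these counts were 392, 367, 387 and 411, against 690 with all libraries. The 4 sets without a call of the difference start at gID_15177, gID_15277, gID_10805 and gID_15077. The first of these changed by -2.78 ± 0.62 in HAP1 and had 0 guides called lower there. Its HAP1 signal was 8.01 and 6.73 at day 14, against 36.2 and 69.8 at day 0, so the gap was wider at day 0. The set gID_04245 to gID_04248 had wide HAP1 gaps at both days, -1.06 and -1.17. It had a smaller SE of 0.53 and was called. The geometric mean of gID_15177 to gID_15180 over the day 0 libraries of both lines, 59.5, was the lowest of the members. The variances of the fit follow a trend on the mean. What made the SE of gID_15177 to gID_15180 large was not tested.

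The loss was shared unequally by the guides of a set. All 4 guides were below -1 in HAP1 in 22 sets, 3 in 55 sets, 2 in 38 sets and 1 in 5 sets. The spread of guides about their set mean was 1.18 in the members (SD), 1.39 in the comparison sets and 0.44 over all sets. Within a member the distance between the guide lost most and the guide lost least had a median of 2.24. It was widest in gID_12621 to gID_12624, whose guides changed by -0.41, -0.81, -3.42 and -6.33. The last of these, gID_12624, was the member guide with the lowest change, at 8.03 and 2.19 at day 14 against 281 and 403 at day 0. It was narrowest in gID_08085 to gID_08088, with -1.60, -1.94, -1.73 and -1.83.

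In 5 sets a single guide was below -1, and the sets were named after this was seen. In gID_03977 to gID_03980 the guides changed by 0.30, 0.18, -0.81 and -4.25 in HAP1. In gID_09441 to gID_09444 they changed by 0.01, -0.51, -0.79 and -4.29. In gID_04257 to gID_04260 the last guide was at -3.31 and the others between -0.57 and -0.19. The sets starting at gID_09505 and gID_00197 had last guides at -1.95 and -2.14. In HEK293FT these 5 last guides were at -0.54, -0.61, -0.87, -0.07 and -0.33. The last guide was also the lowest of its set in HEK293FT in 4 of the 5, the exception being gID_09505 to gID_09508.

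Guide numbers inside a set followed the HAP1 change. In 104 of 120 members each guide was lower than the one before it, and the medians along the 4 places were -0.38, -1.23, -1.93 and -2.68. Over all sets these medians were 0.26, 0.08, -0.04 and -0.16. How the numbers were assigned is not stated, and numbering by the HAP1 outcome cannot be told apart from another order that follows it. In HEK293FT the members' medians along the same places were -0.04, -0.05, -0.17 and -0.32. The rule used the HEK293FT mean of a set and not the order within it. In 88 of 119 members the fourth guide had the lower HEK293FT change than the first, with a median difference of -0.25. Over all sets the HEK293FT medians along the places were -0.03, -0.03, -0.03 and -0.05. In the 148 comparison sets they were -0.29, -0.45, -0.81 and -1.19 in HEK293FT and -0.90, -2.09, -3.03 and -3.93 in HAP1. The order was thus not particular to the members.

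That order could be read in each library. The mean of the fourth guide less the first, over 119 members, was -0.41 and -0.16 in the HEK293FT day 14 libraries, against -0.04 and 0.00 in the day 0 libraries. Both day 14 values were below both day 0 values, and the first library again showed more. In the 148 comparison sets this HEK293FT mean was -1.37 and -0.92 at day 14, against -0.20 and -0.07 at day 0. In HAP1, over 120 members, it was -2.62 and -2.42 at day 14, against -0.34 and -0.01 at day 0. In the first HAP1 day 0 library the fourth guide was already below the first in 88 of 120 members, against 59 of 120 in the second. In the 148 comparison sets the HAP1 day 0 counts were 106 and 80, with means of -0.37 and -0.05. Over all sets the HAP1 day 0 means were 0.20 and 0.18. Across 478 member guides the deviations from the set mean in HAP1 and in HEK293FT had a Pearson correlation of 0.460 and a Spearman correlation of 0.438. The correlations were 0.700 and 0.711 over 588 guides of the comparison sets, and 0.318 and 0.103 over 16566 guides of all sets. The guides of a set share their library, scaling and abundance class, so these values are descriptions across guides.

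At the guide level the HEK293FT changes of members ran from -1.01 to 0.82, and 144 of 478 were above 0. The lowest was gID_03532, at 32.1 and 82.9 at day 14 against 96.7 and 112 at day 0, so that the first day 14 library carried the fall. The highest was gID_16458, at 353 and 234 at day 14 against 156 and 169 at day 0, while in HAP1 it was at 35.0 and 54.5 at day 14 against 101 and 104 at day 0. Neither passed the test in HEK293FT, with adjusted p = 0.306 and 0.102 by limma (n = 2 per day). The 2 guides called lower there were gID_02494, at -0.93, and gID_12668, at -0.74, with adjusted p = 0.0183 and 0.0429 by limma. In HAP1 they changed by -1.80 and -2.43. The highest member guide in HAP1 was gID_16457, at 70.1 and 68.2 at day 14 against 38.4 and 46.0 at day 0, the neighbour of gID_16458 in the same set.

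Low signal limits the size of the HAP1 falls. At day 14, 140 and 136 of 480 member guides lay below a signal of 20 in the HAP1 libraries, against 1 and 0 at day 0. In the same day 14 libraries 240 and 264 of 591 guides of the comparison sets did so, and 2.57% and 2.63% of all guides. In HEK293FT no member guide did so in any library, and the lowest was at 31.2. With a pseudocount of 10 the median HAP1 change of the members was -1.23, and 94 sets met the rule.

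The sets of the library fell into separate classes of abundance at day 0. The geometric mean over the 4 day 0 libraries was at most 179 in 3669 sets and at least 249 in 505 sets, and no set lay between these values. A border of 200 was chosen after this gap was seen. The abundant class held 17 of 120 members (14.2%), 60 of 148 comparison sets (40.5%) and 12.1% of all sets. Put the other way, 77 of 505 abundant sets (15.2%) and 191 of 3669 other sets (5.21%) were below -1 in HAP1. Members made up 22.1% of these 77 abundant sets and 53.9% of the 191 others. What separates the classes is not stated, and the non-targeting guides had a level like that of the abundant class.

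The abundant members had a smaller SE than the other members, with a median of 0.11 against 0.16 in the other 103. The abundant class had no smaller SE over all sets, with medians of 0.099 and 0.095. Each SE was estimated over both lines. The abundant members had median changes of -1.72 in HAP1 and -0.17 in HEK293FT, and those of the other members were -1.53 and -0.17. Over all sets the medians were -0.03 and -0.12 in the abundant class, and 0.05 and -0.03 in the rest. The set gID_06881 to gID_06884 was at 71.1 and 80.2 in HAP1 at day 14, against 426 and 399 at day 0. In HEK293FT it was at 400 and 356 at day 14, against 435 and 477 at day 0. The libraries did not overlap between days in either line, and the changes were -2.46 ± 0.09 in HAP1 and -0.27 ± 0.09 in HEK293FT. The set gID_15089 to gID_15092 was at 107 and 103 in HAP1 at day 14, against 374.5 and 466 at day 0, and at 438 and 502 in HEK293FT at day 14, against 463 and 446 at day 0. Its changes were -1.999 ± 0.11 in HAP1 and 0.05 ± 0.11 in HEK293FT. The set gID_10853 to gID_10856 changed by -1.77 ± 0.10 in HAP1 and 0.04 ± 0.10 in HEK293FT. The gap between the HAP1 day 0 libraries was smaller in the abundant members, with a median of -0.13 and the first library lower in 12 of 17. In the others it was -0.31, with the first library lower in 97 of 103. This gap had medians of -0.21 in the abundant comparison sets and -0.56 in the other comparison sets. Over all sets it was -0.05 in the abundant class and -0.04 in the rest. The difference of the fourth from the first guide in HEK293FT had a median of -0.53 in the abundant members and -0.23 in the others.

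Members lay along the whole range of guide numbers, with 2.87% of all sets chosen. The share was highest in numbers 15001 to 16000, with 14 of 250 sets (5.60%), and in 10001 to 11000, with 12 of 249 sets (4.82%). It was lowest in numbers 1 to 1000, with 3 of 250 sets, and in 5001 to 6000, with 3 of 249. The same block of 15001 to 16000 held 15 of the comparison sets, and 11001 to 12000 held 20 of them and 9 members.

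Some members were next to each other. In 8 runs of consecutive sets, 17 of 120 members (14.2%) had another member beside them, while 5.58% of all sets lay beside a member. Of the 148 comparison sets, 29 (19.6%) lay beside a member. The longest run, gID_08029 to gID_08040, held 3 sets with HAP1 changes of -3.62, -1.88 and -2.34 and HEK293FT changes of -0.28, -0.29 and -0.26. The runs gID_14125 to gID_14132 and gID_15085 to gID_15092 held pairs at -1.89 and -2.83, and at -1.88 and -1.999, in HAP1. The run gID_07665 to gID_07672 paired -1.29 with -3.42, gID_13501 to gID_13508 paired -1.67 with -2.50, and gID_10849 to gID_10856 paired -1.498 with -1.77. The runs gID_06093 to gID_06100 and gID_15653 to gID_15660 paired -1.24 with -1.31 and -1.12 with -1.65. In 4 of the 8 runs the sets belonged to different abundance classes, as in gID_15085 to gID_15092, with 69.0 and 87.7 beside 374.5 and 466 in the HAP1 day 0 libraries.

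Among sets 1 to 8 places away from a member, the shares that were members were 7.53%, 5.00%, 9.17%, 5.02%, 3.33%, 1.67%, 2.50% and 2.50%, against 2.87% of all sets. The shares were above that value up to 5 places away and did not fall evenly. Of 221 adjacent sets that were not members, 29 (13.1%) were below -1 in HAP1, against 148 of all 4054 sets that were not members (3.65%). A comparison set lay beside 25 members (20.8%), against 273 of all sets (6.54%). Over all sets the HAP1 changes of adjacent sets had a Pearson correlation of 0.210 over 4170 pairs, and of 0.070 between sets 8 places apart, with adjacent pairs at 0.158 in HEK293FT. Borders moved by 1, 2 or 3 numbers gave 109, 122 and 108 sets under the same rule, against 120 with the borders used.

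Members were also chosen again from 1 day 0 and 1 day 14 library of each line and then read in the libraries not used. With 1 library per day there is no test. Chosen on the first libraries of both days, 77 sets had a median HAP1 change of -1.64 in the unused libraries, against -1.497 in those used. Their HEK293FT medians were -0.06 and -0.14. Chosen on the second libraries, 157 sets had HAP1 medians of -1.37 unused and -1.66 used, and HEK293FT medians of -0.28 and -0.08. With the first day 14 and the second day 0 library, 108 sets had HAP1 medians of -1.23 and -1.54 and HEK293FT medians of -0.08 and -0.16. With the second day 14 and the first day 0 library, 129 sets had HAP1 medians of -1.88 and -1.54 and HEK293FT medians of -0.30 and -0.09.

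The HAP1 change in the unused libraries was below 0 in 77 of 77, 156 of 157, 108 of 108 and 129 of 129 sets. Of all 4174 sets, 1760 were below 0 in the first HAP1 day 14 library and 1842 in the second. Those 2 counts were read against the mean of both day 0 libraries. Both bounds were met again by 57 of 77 sets (74.0%), 57 of 157 (36.3%), 65 of 108 (60.2%) and 65 of 129 (50.4%). Over all sets the unused libraries alone gave 3.76%, 1.84%, 3.09% and 2.59%. The shares were lower in both cases where the second HEK293FT day 14 library had served to choose, and the unused first library then gave HEK293FT medians of -0.28 and -0.30, near the bound.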

How the data were processed

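The deposited unit is signal: normalised guide abundance per library, made by the authors in a way not given in the sources used here. Cutadapt 1.13, Bowtie 1.1.2 and GRCh38 appear, without roles, in the submitters' processing notes. In HAP1 1 value and in HEK293FT 120 values had no guide ID and were dropped, and 17 and 16 repeated IDs were averaged. The tables of the other 2 screens share 0 guide names with these and were not used.

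Log2 signal was centred per library on a trimmed mean over non-targeting guides that left out 30% at either end. Guides and set means were fitted with limma 3.58.1 (R 4.3.3), with variances following a trend on the mean, across all guides or all sets. Guides were fitted within each line, and differences between lines as an interaction over 8 libraries. Calls needed a Benjamini-Hochberg adjusted p under 0.05. The fit was run on simulated data whose spread came from the day 0 libraries. The spread at low day 14 signal was not simulated, so the fit was untested there. Where a library was left out, the lone library of that day was assumed to vary like the others.

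The members, the rule and the sets of 4 were chosen with earlier results of these data known. Named sets are the 10 lowest in HAP1, the 5 highest and 5 lowest in HEK293FT, 3 on each side of each bound, those with the widest and narrowest spread, runs, and sets short of 4 guides. Those short of 4 were gID_07681 to gID_07684 and gID_11461 to gID_11464, with 3 guides each in HEK293FT, at -1.54 and -1.09 in HAP1.

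Across guides, deviations from the mean of a day correlated at -0.445 in HAP1 and -0.321 in HEK293FT between libraries that carry 1 number, so the numbers were not used to pair them.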

Additional observations from a re-analysis of the deposited data

Results flagged for a closer look

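By limma's interaction test the day effect was not alike in the lines. It was lower in HAP1 than in HEK293FT for 266 of 478 member guides and for 116 of 120 member sets, against 3.93% of all guides and 8.15% of all sets. The guide count was between 159 and 302 with a library left out. The bounds of the rule build in this direction, so these counts are no independent result. No group has enough libraries for a check of single libraries that lie far from the others.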

How the results depend on the processing

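The member guides called lower in HAP1 stayed within 1.5 times of 315 under all alternatives run. They moved to both sides of 315 with a library left out and ran from 293 to 390 otherwise. With all libraries kept, the counts over all guides ran from 945 to 2003, against 1138 in the fit reported, so the library moved with the members. For member sets whose day effect differed the counts ran from 95 to 118 with all libraries kept, against 116 in the fit reported. Over all sets they ran from 198 to 495, against 340. The guides whose day effect differed, 266 in the fit reported, ran from 159 to 302 over the fits that omit a library: 174 without HAP1 day 0 replicate 2, 159 and 160 without HEK293FT day 0 replicates 1 and 2, and 175 without HEK293FT day 14 replicate 2. The 2 guides called lower in HEK293FT became 1 with centring on all guides, 4 on the deposited scale, 0 with an absolute log2 change of at least 1 required, and between 1 and 42 with a library left out. Over all guides the counts with all libraries kept were 178, 224 and 150 in the same order, against 190 in the fit reported. The cause of these moves was not tested.

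With a replicate block 308 member guides were called lower in HAP1, 1 in HEK293FT and 201 by the difference, and 112 sets by the difference. Over all guides or sets these counts were 1034, 199, 497 and 283. Crossed numbers, added after the opposite deviations were seen, gave 390, 30, 356 and 118 in the same order, and over all guides or sets 2003, 761, 1323 and 495, against 1138, 190, 690 and 340 in the fit reported, with 2 and 6 member guides called higher in HAP1 and HEK293FT. The number of sets meeting the rule was 65 with a HAP1 bound of -1.5 and 35 with a HEK293FT bound of -0.1, which follows from the narrower bounds. It ran from 83 to 148 with a library left out. The median of the 4 HAP1 medians in unused libraries was -1.504, and -1.38 with a pseudocount of 10. Read depth is unknown, so counting error could not be given.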
